A study of Mus musculus with 15 samples.

Results

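Adrenal glands taken 3 days after dexamethasone was withdrawn were compared with glands of untreated mice, with 4 arrays in each group, which are 8 of the 15 arrays of the series. The arrays were chosen by their titles, and all 21439 genes with a probe set of their own entered the comparison. All mice were wild-type C57BL/6J males with a labelled age of 6 weeks. Day 3 mice had drunk dexamethasone for 14 days before the withdrawal, whereas control glands were collected before any treatment. In this contrast the drug, the recovery from it and the animals' added days therefore cannot be told apart. The 3 arrays from the end of treatment (withdrawal) and the 4 arrays from day 7 of recovery entered the same model and show where a day 3 level stood in the time course. Each array is titled as a biological replicate, and whether animals were pooled is not given in the sources used here. P-values and SEs then measure the spread between samples within groups, pooled over all 15 arrays. The spread of the withdrawal and day 7 arrays therefore enters them too. The comparison asks which genes had overshot their untreated level at day 3 and which still lagged behind it.

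Dexamethasone is a synthetic glucocorticoid that suppresses the pituitary hormone ACTH. ACTH binds MC2R, which needs the accessory protein MRAP, on cells of the zona fasciculata and raises cAMP, cholesterol uptake and corticosterone synthesis. Without ACTH the inner cortex shrinks and its cells die, and macrophages clear the debris and its lipid. When the drug is removed, ACTH returns and the cortex regrows by cell division and enlargement.

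The glands carried the defining transcripts of the adrenal. Star, which moves cholesterol into mitochondria, had a log2 level of 10.91 ± 0.07 in control and 10.80 ± 0.06 at day 3 (mean ± SD, n = 4 each). Levels are on the log2 scale of the deposited values, on which array medians lay between 1.55 and 1.64 and mark the floor. Th, the first enzyme of catecholamine synthesis in the medulla, stood at 9.60 ± 0.54 and 9.74 ± 0.39. Some arrays also held transcripts of other tissues. The mean of 6 liver genes was 6.29 in day 3 replicate 1, 4.79 in control replicate 4 and 4.59 in day 3 replicate 3, against 2.15 to 2.93 in the other control and day 3 arrays. These 3 are called liver-rich here. On day 7, replicates 1, 2 and 4 had 5.05, 4.40 and 4.68, and they were kept where the 3 were left out. Albumin (Alb) reached 8.24 in day 3 replicate 1. The mean of 11 neutrophil genes was 3.30 in day 3 replicate 2 and 1.31 to 1.73 in the other 7. The brown fat gene Ucp1 ran from 1.37 to 5.38 in control and from 1.57 to 4.79 at day 3. In whole glands, fewer cells of a type and less RNA per cell cannot be told apart.

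At day 3, 19 genes had risen above control and 9 had fallen below it (limma, Benjamini-Hochberg adjusted p under 0.05 over all 21439 genes). These calls are 0.0886% and 0.042% of all genes. A change of at least 2-fold was reached by 10 of the genes that rose and 2 of those that fell. At an unadjusted p under 0.05 there were 2152 genes. By contrast, 921 genes (4.3%) passed in either direction between withdrawal and control, and 483 (2.25%) between day 3 and withdrawal. These 3 contrasts share arrays. In all 28 called genes the 4 day 3 arrays and the 4 control arrays did not overlap. Over all genes, 589 (2.75%) had every day 3 array above every control array and 525 (2.45%) had every one below.

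The counts depended on single arrays. Without control replicate 1, 3 or 4 there were 8, 5 and 4 higher and 2, 5 and 2 lower genes. Without day 3 replicate 1, 2 or 4 there were 14, 4 and 4 higher and 4, 3 and 2 lower. Only Gpnmb, Mmp12, Lmnb1, Tmem71 and Abca1 passed in all 8 fits that left out an array, and the other 23 passed in 0 to 4 of them. Without the 3 liver-rich control and day 3 arrays, 13 higher and 2 lower genes passed, and 4 of the 28 were among them, namely Gpnmb, Mmp12, Id1 and Lmnb1. After a further quantile normalization the split was 9 higher and 10 lower.

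**Figure D1:**
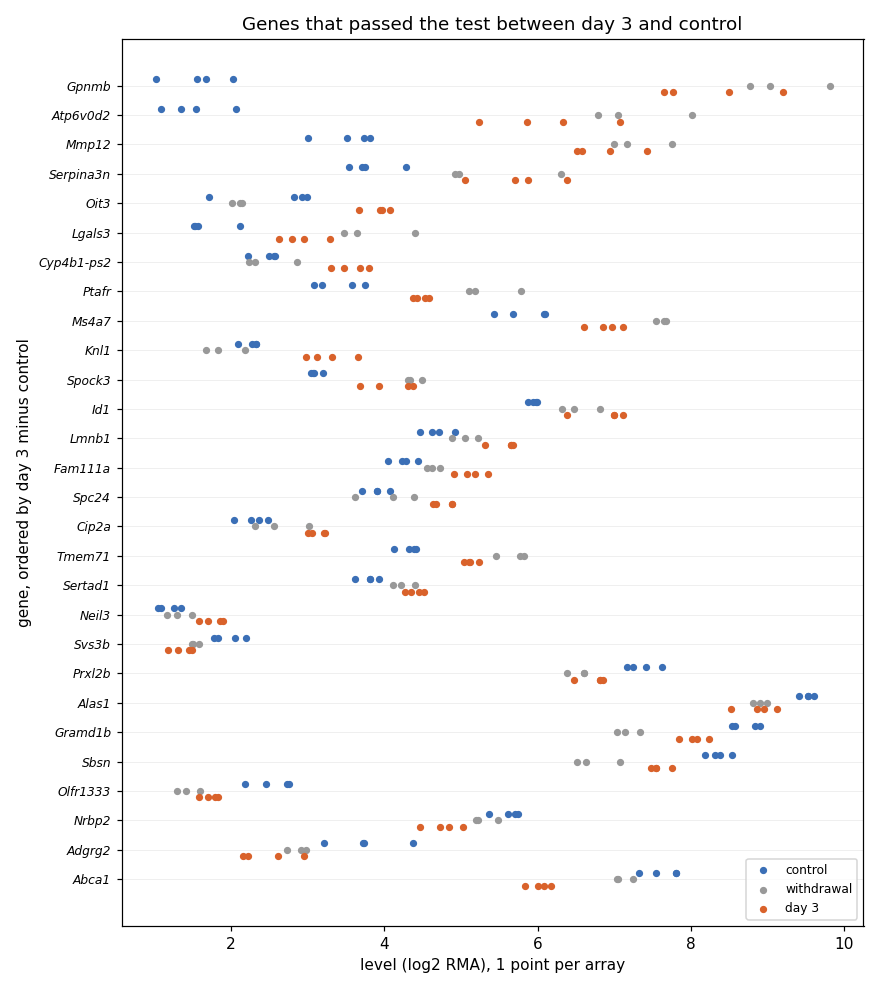
Log2 levels of the 28 genes that passed between day 3 and control, with 1 point per array for control (blue), withdrawal (grey) and day 3 (orange). Gpnmb, Atp6v0d2 and Mmp12 at day 3 lay close to withdrawal and far above control, whereas Abca1 at day 3 lay below both other groups.

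Genes of lipid-laden macrophages were the group furthest above control. These are scavenger cells that have taken up much lipid and express lysosomal and lipid-binding proteins. Of 16 measured members of the list, 5 rose and none fell, 15 had a positive difference, and 11 had all day 3 arrays above all control arrays. Over all genes, 0.0886% rose, 49.2% had a positive difference and 2.75% had no overlap above control. The median difference was 1.21, beside -0.003 over all genes. For 13 of the 16 the day 3 mean lay between the control and withdrawal means, as for 40.0% of all genes. The list mean ran from 4.42 to 4.58 on the control arrays and from 5.93 to 6.67 at day 3, with 6.55 to 7.19 at withdrawal.

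Gpnmb, a transmembrane glycoprotein of lipid-loaded and lysosome-rich macrophages, stood at 1.56, 1.02, 1.68 and 2.03 in the control arrays, around the floor. The day 3 arrays had 7.65, 9.20, 7.76 and 8.50. The groups were far apart, and the difference was 6.71 ± 0.76 (SE) with a limma adjusted p of 0.00307. No fold is given for a control level at the floor. At withdrawal Gpnmb was at 9.20 ± 0.54 (SD, n = 3), and day 3 minus withdrawal was -0.92 ± 0.82 (SE; limma adjusted p = 0.698). At day 7 its arrays ran from 3.78 to 8.98. Their SD of 2.19, against 0.42 in control and 0.72 at day 3, enters the pooled SE of 0.76.

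Atp6v0d2, a subunit of the vacuolar proton pump found in osteoclasts and macrophages, had control levels of 1.09, 2.07, 1.35 and 1.55, again around the floor. Day 3 levels were 5.86, 7.07, 5.24 and 6.33, all above control. The difference was 4.61 ± 0.75 (limma adjusted p = 0.0428), and it was 5.77 between withdrawal and control. The SE of Atp6v0d2 also holds its day 7 spread (SD 2.12, against 0.41 in control and 0.77 at day 3). Mmp12, the macrophage elastase, had 3.01, 3.74, 3.81 and 3.51 in control and 6.58, 7.43, 6.51 and 6.94 at day 3. The difference was 3.35 ± 0.36 (10.2-fold, limma adjusted p = 0.00307), next to 3.79 at withdrawal. For Gpnmb, Atp6v0d2 and Mmp12 alike, day 3 replicate 2 had the highest of the day 3 levels.

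Lgals3, which encodes the carbohydrate-binding protein galectin-3, had 1.52, 2.12, 1.54 and 1.57 in control, again around the floor, and 2.63, 3.29, 2.80 and 2.96 at day 3. The groups did not overlap, and the difference was 1.23 ± 0.22 (limma adjusted p = 0.0434). Ms4a7, a membrane-spanning protein of macrophages, had 5.68, 5.43, 6.10 and 6.08 in control and 6.85, 6.97, 6.60 and 7.12 at day 3. It rose by 1.06 ± 0.19 (limma adjusted p = 0.0434). Both genes had been further from control at withdrawal, by 2.15 and 1.80. Ptafr, the receptor for platelet-activating factor, is not on the list. It stood at 3.58, 3.75, 3.09 and 3.19 in control and at 4.37, 4.43, 4.53 and 4.58 at day 3, and rose by 1.08 ± 0.19 (limma adjusted p = 0.0458). Its level at withdrawal was 5.36 ± 0.37, and day 3 minus withdrawal was -0.88 ± 0.21 (limma adjusted p = 0.0399), so it had fallen from its withdrawal level and was still above control.

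Other members of the list had large differences that did not pass. Clec4d and Clec7a, both C-type lectin receptors, differed by 2.57 ± 0.57 and 1.47 ± 0.31 (limma adjusted p = 0.089 and 0.0733). For Clec4d the day 7 SD of 1.29, against 0.43 in control and 0.88 at day 3, enters the SE. Trem2, a lipid-sensing receptor, differed by 1.54 ± 0.31 (limma adjusted p = 0.0665). Fabp5, a fatty acid-binding protein, had 7.85 to 8.23 in control and 9.05 to 9.37 at day 3 (difference 1.13 ± 0.23, limma adjusted p = 0.0665). Its other probe sets gave 1.18 and 1.16. The count of 5 members that rose became 3 after quantile normalization, 2 without the 3 liver-rich arrays and 8 with a variance trend and robust moderation.

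General macrophage genes stood nearer to control. None of 23 passed in the main fit, 7 had no overlap above control (2.75% over all genes), and the median difference was 0.24. With a filter on dim genes, which kept those of at least 3 in either group, 3 members passed. With a variance trend and robust moderation 2 did, where 53 and 52 of all genes rose under these settings. For withdrawal minus control the median was 0.79. The members differed among themselves. Cd84 and Cd68, a surface receptor and a lysosomal membrane protein, had differences of 1.78 and 1.32. Lyz2, the lysozyme of myeloid cells, had 8.34 to 8.71 in control and 9.15 to 9.66 at day 3 (difference 0.88 ± 0.16, limma adjusted p = 0.0546). Csf1r, the receptor for the growth factor CSF1, differed by -0.06 and Adgre1 (F4/80) by 0.07. Cx3cr1, a chemokine receptor, differed by -0.48, and by -0.04 without the 3 liver-rich arrays. Its day 3 levels were 3.99 in the liver-rich replicate 1 and 5.07 to 5.54 in the other replicates. Levels of Cd68 at day 3 ran from 7.32 to 8.36, with the highest in replicate 2, the array with the neutrophil transcripts. The part of those transcripts in the macrophage result was not tested. Without the 3 liver-rich arrays the medians of the general and lipid-laden lists were 0.40 and 1.47.

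**Figure D2:**
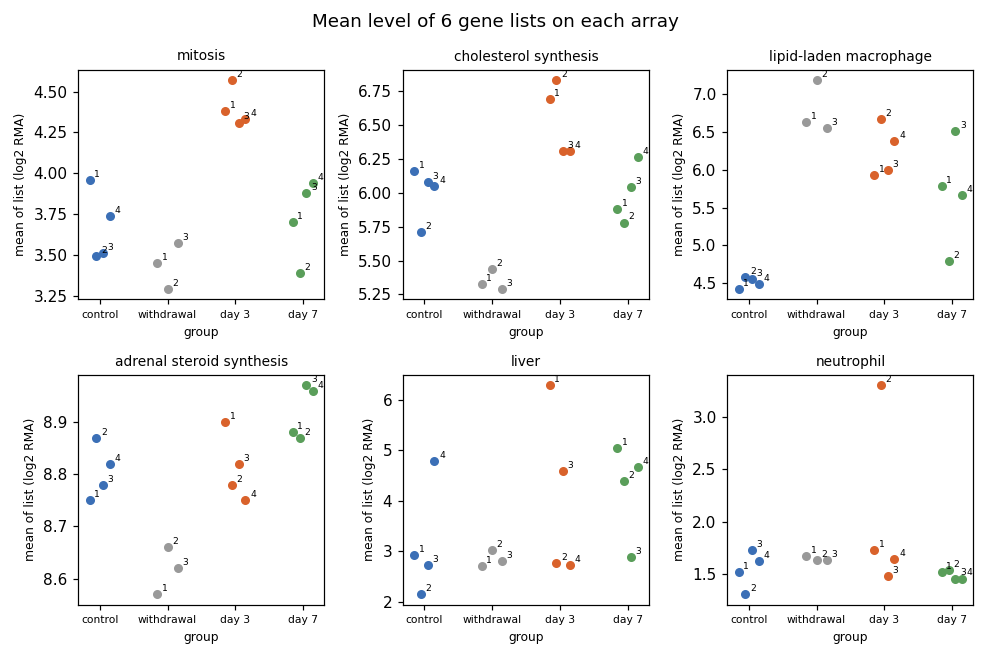
Mean log2 level of the measured members of 6 gene lists on each of the 15 arrays, with replicate numbers beside the points. The mitosis and cholesterol synthesis lists had every day 3 array above every control and withdrawal array, the lipid-laden macrophage list lay above control and mostly below withdrawal at day 3, and the liver and neutrophil lists were high in some arrays.

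Genes of cell division were higher at day 3 than in both control and withdrawal. All 30 measured members of the mitosis list had a positive difference, with a range of 0.21 to 1.19 and a median of 0.73. Of the 30, 16 had no overlap above control. Over all genes these shares were 49.2% and 2.75%. None of the 30 passed on its own at the threshold in the main fit. With the filter on dim genes 4 passed, and with a variance trend and robust moderation 4 did, where 53 and 52 of all genes rose. The list mean was 3.49 to 3.96 on the control arrays and 4.31 to 4.57 at day 3, so the groups did not overlap. In all 30 the day 3 mean was above both the control and the withdrawal mean, as in 29.0% of all genes. The median of withdrawal minus control was -0.30. At day 7 the list mean ran from 3.39 to 3.94, within the control range apart from its lowest array.

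Top2a, the topoisomerase that untangles chromosomes before they part, had 4.62, 4.64, 4.41 and 4.88 in control. Day 3 levels were 5.32, 5.85, 5.72 and 5.68, all above control. The difference was 1.00 ± 0.20 (SE; limma adjusted p = 0.0665), and day 3 minus withdrawal was 1.32 ± 0.22 (limma adjusted p = 0.00521), so Top2a had risen from withdrawal. Mki67, the proliferation marker Ki-67, had 4.80, 4.41, 4.67 and 4.82 in control and 5.85, 5.23, 5.49 and 5.62 at day 3, with a difference of 0.87 ± 0.20 (limma adjusted p = 0.101). Cenpe, a kinetochore motor, and Nusap1 and Prc1, which bundle spindle microtubules, differed by 1.02 ± 0.19, 0.92 ± 0.18 and 1.04 ± 0.29. Birc5 (survivin) and the mitotic kinases Cdk1, Plk1 and Aurkb differed by 0.82, 0.84, 0.81 and 0.88. Ndc80 had the largest difference of the list at 1.19 ± 0.42, with groups that overlapped (2.29 to 4.31 in control and 3.76 to 5.04 at day 3).

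Promoters of Mki67 and Top2a are shown because every member of the list had a positive difference and mitotic promoters are known for CCAAT boxes and for the cell cycle homology element, TTTGAA or TTCGAA. Each sequence is the gene's own strand upstream of its outermost annotated start, from RefSeq on GRCm38.p6, and capitals mark either element or the CCAAT box on either strand. Mki67 spans chr7:135716451-135716629 and Top2a chr11:99024200-99024439, both on the minus strand.
Mki67: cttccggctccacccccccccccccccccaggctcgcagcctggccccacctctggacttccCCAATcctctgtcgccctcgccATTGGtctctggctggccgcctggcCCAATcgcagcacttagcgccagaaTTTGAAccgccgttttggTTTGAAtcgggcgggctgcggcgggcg
Top2a: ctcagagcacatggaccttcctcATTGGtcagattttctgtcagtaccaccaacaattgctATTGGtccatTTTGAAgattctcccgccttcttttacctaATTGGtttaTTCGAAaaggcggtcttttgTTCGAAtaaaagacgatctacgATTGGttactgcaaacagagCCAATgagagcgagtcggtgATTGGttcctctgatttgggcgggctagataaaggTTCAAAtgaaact
In the promoter windows of RefSeq, which run from 250 bases before to 50 after a start, 26 of the 30 mitosis genes were found. TTTGAA on either strand stood in 21 of the 26 and CCAAT in 20, beside 20.2% and 41.1% of all 27025 genes of the table. TTCGAA stood in 3 of the 26 and in 1.8% of all genes. A gene with several windows was counted where any held the letters, motifs were counted separately, and a match is a description of sequence.

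Several genes of division outside the list rose. Knl1, a kinetochore scaffold, had 2.33, 2.10, 2.28 and 2.33 in control and 3.66, 3.32, 3.12 and 2.98 at day 3. It rose by 1.01 ± 0.18 (limma adjusted p = 0.0434), and its level at withdrawal was 1.90 ± 0.26. Spc24, a subunit of the Ndc80 kinetochore complex, had 3.91, 4.08, 3.71 and 3.91 in control and 4.64, 4.88, 4.68 and 4.89 at day 3, and rose by 0.87 ± 0.15 (limma adjusted p = 0.0434). Both had day 3 levels above withdrawal, by 1.37 ± 0.19 and 0.73 ± 0.16 (limma adjusted p = 0.00183 and 0.0244). Spc24, Cip2a, Fam111a and Neil3 were chosen for mention after their values were seen.

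Lmnb1, which encodes lamin B1 of the nuclear envelope, had 4.92, 4.62, 4.71 and 4.47 in control. Its day 3 levels were 5.32, 5.65, 5.68 and 5.66, above all control arrays, and replicate 1 was the lowest of them. It rose by 0.90 ± 0.11 (limma adjusted p = 0.00611), and day 3 minus withdrawal was 0.52 ± 0.12 (limma adjusted p = 0.0383). Cip2a, an inhibitor of the phosphatase PP2A, rose by 0.84 ± 0.14 from 2.29 ± 0.19 (limma adjusted p = 0.0428). Fam111a, a protease that protects replication forks, rose by 0.88 ± 0.15 from 4.25 ± 0.16 (limma adjusted p = 0.0434). Neil3, a DNA repair glycosylase, rose by 0.58 ± 0.10 from 1.19 ± 0.14, which is at the floor (limma adjusted p = 0.0458). Its day 3 level of 1.76 ± 0.14 was near the floor too.

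Genes of DNA replication had a smaller median difference than those of mitosis. None of 29 passed, 27 were positive (49.2% over all genes), 6 had no overlap above control (2.75% over all genes), and the median was 0.28. Dtl and Cdc6, which act at licensing of replication origins, differed by 0.75 ± 0.19 and 0.68 ± 0.19, from control means of 1.91 and 1.59, near the floor. Uhrf1, which keeps DNA methylation through replication, differed by 0.88 ± 0.30 with groups that overlapped. Of the replicative helicase, Mcm2 and Mcm3 differed by -0.02 and 0.08, and Mcm4, Mcm5, Mcm6 and Mcm7 by 0.32, 0.36, 0.31 and 0.20. CCAAT stood in 17 and TTTGAA in 3 of the 25 genes with a promoter window. Of 8 measured replication-dependent histone genes none passed, and H1f5, a linker histone, had 5.23 to 6.46 in control and 6.55 to 7.20 at day 3 (difference 1.15 ± 0.26, limma adjusted p = 0.101).

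**Figure D3:**
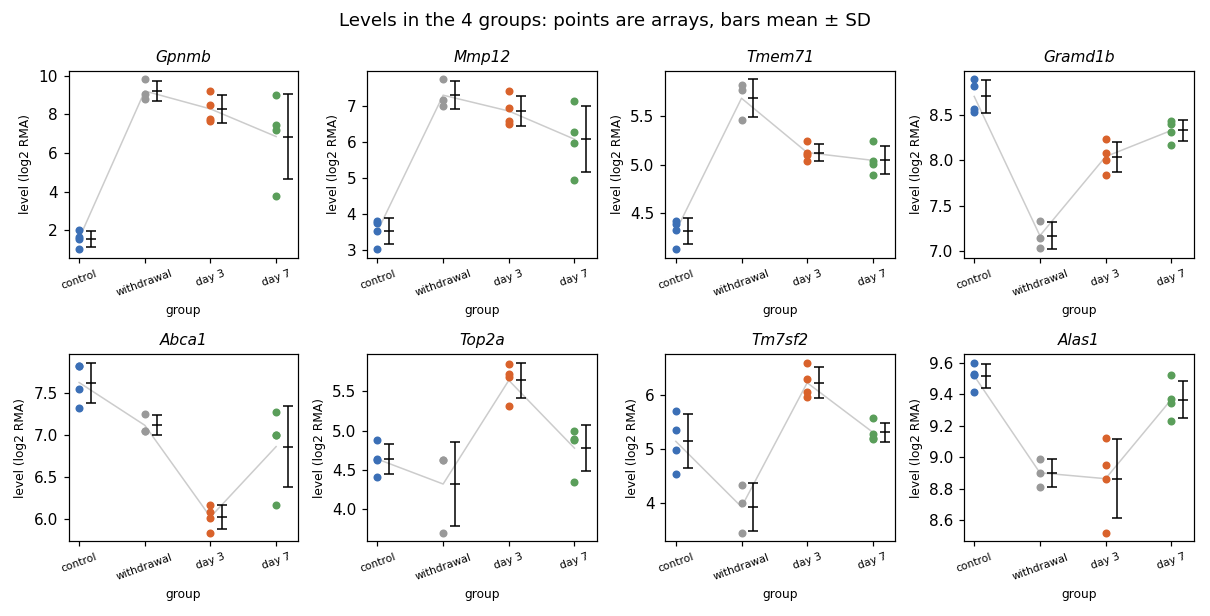
Log2 levels of 8 genes in control, withdrawal, day 3 and day 7, with 1 point per array and the mean ± SD beside the points (n = 4, 3, 4 and 4). Gpnmb, Mmp12 and Tmem71 were still raised at day 3, Gramd1b and Alas1 were still low, Top2a and Tm7sf2 lay above control and withdrawal, and Abca1 lay below both.

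Cholesterol is the substrate of every adrenal steroid, and cells make it when the sterol-regulated factor SREBP is active or export it through ABCA1 under LXR. Genes of cholesterol synthesis were above control at day 3, although none of 16 passed. Of these, 15 had a positive difference (49.2% over all genes), 7 had no overlap above control (2.75% over all genes), and the median was 0.56. In 15 the day 3 mean lay above both the control and the withdrawal mean, as in 29.0% of all genes. The list mean was 5.71 to 6.16 in control, 5.29 to 5.44 at withdrawal and 6.31 to 6.83 at day 3. The median of withdrawal minus control was -0.41. With the filter on dim genes 1 member passed, and with a variance trend and robust moderation 2 did, where 53 and 52 of all genes rose.

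The 6 largest differences were in enzymes that act on squalene or on sterols made from it. Cyp51, the lanosterol demethylase, had 5.65, 5.13, 5.41 and 5.29 in control and 6.98, 7.17, 5.81 and 6.15 at day 3. Replicates 1 and 2 were the highest, no array overlapped, and the difference was 1.15 ± 0.32 (limma adjusted p = 0.196). Tm7sf2, a sterol reductase, had 5.36, 4.54, 4.99 and 5.71 in control and 6.30, 6.61, 5.97 and 6.06 at day 3 (difference 1.08 ± 0.23, limma adjusted p = 0.0805). Withdrawal minus control was -1.22, and at day 3 it was 2.30 ± 0.25 above withdrawal (limma adjusted p = 0.000357). Sqle (squalene epoxidase), Hsd17b7, Nsdhl and Msmo1 differed by 1.03 ± 0.32, 0.94 ± 0.21, 0.72 ± 0.17 and 0.63 ± 0.14, all without overlap. Control replicate 2 was the lowest control array for all 6 of these enzymes, with Sqle and Msmo1 at 5.44 and 7.14. Its mean of the whole list was 5.71, against 6.05 to 6.16 in the other control arrays.

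Other enzymes of the route had differences from -0.22 to 0.60. Fdft1, which makes squalene, differed by 0.57 ± 0.15 without overlap. Mvd, Hmgcs1 and Mvk, of the mevalonate steps, differed by 0.60 ± 0.22, 0.56 ± 0.21 and 0.43 ± 0.13, all with overlap. Fdps, which makes farnesyl diphosphate, differed by 0.20 ± 0.19. Dhcr7, which makes cholesterol from its last precursor, differed by -0.22 ± 0.15. Fdps and Dhcr7 were the members furthest below control at withdrawal, with differences of -1.72 and -2.05, and at day 3 they were not among those furthest above it.

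Promoters of Msmo1, Cyp51 and Hsd17b7 are shown because CCAAT boxes, where the factor NF-Y binds beside SREBP, are known in promoters of this route. They lie at chr8:64733579-64733828, chr5:4104698-4104947 and chr1:169969243-169969455 on GRCm38.p6, all on the minus strand, and capitals mark CCAAT on either strand.
Msmo1: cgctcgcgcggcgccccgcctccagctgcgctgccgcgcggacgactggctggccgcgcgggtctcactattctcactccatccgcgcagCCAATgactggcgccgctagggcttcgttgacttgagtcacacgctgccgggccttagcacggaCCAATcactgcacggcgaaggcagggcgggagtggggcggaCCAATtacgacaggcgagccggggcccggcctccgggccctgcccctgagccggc
Cyp51: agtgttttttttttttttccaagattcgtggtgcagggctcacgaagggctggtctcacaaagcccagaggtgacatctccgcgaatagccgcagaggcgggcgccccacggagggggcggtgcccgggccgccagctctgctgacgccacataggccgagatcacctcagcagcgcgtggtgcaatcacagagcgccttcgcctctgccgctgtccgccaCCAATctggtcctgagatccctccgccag
Hsd17b7: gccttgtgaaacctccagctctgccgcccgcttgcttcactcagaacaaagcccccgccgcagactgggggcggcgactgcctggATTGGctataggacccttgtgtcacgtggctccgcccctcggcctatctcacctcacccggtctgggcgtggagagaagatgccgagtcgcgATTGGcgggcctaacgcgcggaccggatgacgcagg
Of the 16 genes, 13 had a promoter window, and all 13 held CCAAT, beside 41.1% of all genes. The sterol element TCACNCCAC stood in 1 of the 13 and in 1.44% of all genes. CCAAT stood in 7 of the 13 lipid-laden macrophage genes with a window.

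Abca1, which exports cholesterol from cells and is a target of LXR, had the largest fall. Control levels were 7.54, 7.32, 7.81 and 7.81, and day 3 levels were 5.84, 6.08, 6.17 and 6.01. The groups were far apart, and Abca1 fell by 1.59 on the log2 scale (SE 0.19; 3.02-fold, limma adjusted p = 0.00337). At withdrawal it stood at 7.11 ± 0.12 (withdrawal minus control was -0.51, limma adjusted p = 0.207), and day 3 minus withdrawal was -1.08 ± 0.20 (limma adjusted p = 0.0118). By day 7 its arrays ran from 6.17 to 7.27. Without the 3 liver-rich arrays the difference was -1.51, with a limma adjusted p of 0.0752.

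Of the 12 measured genes of sterol sensing, Abca1 alone passed. Of other LXR targets, Abcg1, another sterol exporter, differed by 0.59 ± 0.25. Mylip, which degrades the LDL receptor, differed by 0.30 ± 0.23, and by -0.06 without the 3 liver-rich arrays. Srebf2, which drives the synthesis enzymes, and Insig1, which restrains it, differed by 0.59 ± 0.23 and 0.63 ± 0.18, both without overlap. Srebf1, itself an LXR target, differed by -0.24 ± 0.14. Gramd1b, which carries cholesterol from the plasma membrane to the endoplasmic reticulum in adrenal cells, had 8.90, 8.57, 8.54 and 8.83 in control and 8.08, 8.24, 8.01 and 7.84 at day 3. The difference was -0.66 ± 0.11 (limma adjusted p = 0.0434). Its withdrawal level was 7.17 ± 0.15, and day 3 minus withdrawal was 0.88 ± 0.12 (limma adjusted p = 0.00192), so it had risen from withdrawal without reaching control.

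Enzymes of steroid synthesis were near their control levels at day 3. None of 10 passed, the median difference was -0.02, and the range was -0.15 to 0.35. Cyp21a1, the steroid 21-hydroxylase, had 9.54, 9.48, 9.57 and 9.64 in control and 9.44, 9.39, 9.51 and 9.43 at day 3, with groups that overlapped and a difference of -0.11 ± 0.09. At withdrawal it had been 8.30 ± 0.19. Cyp11b1, which makes corticosterone, differed by 0.04 ± 0.10, Cyp11a1, the side chain cleavage enzyme, by -0.12 ± 0.07 and Star by -0.11 ± 0.07. Star was the 1 member of the 10 with every day 3 array below every control array, as in 2.45% of all genes. Its highest day 3 and lowest control levels both round to 10.84. Scarb1, the receptor for high-density lipoprotein, differed by -0.09 ± 0.16, where withdrawal minus control was -1.74. A difference that did not pass does not show that the levels were equal. Of the ACTH receptor genes, Mc2r differed by 0.13 ± 0.10 and Mrap by -0.44 ± 0.12 (limma adjusted p = 0.181). Mrap had 9.18, 8.92, 9.21 and 9.22 in control, 8.52, 9.01, 8.69 and 8.55 at day 3 and 7.34 ± 0.10 at withdrawal.

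Cortical cells need heme for their cytochromes P450, and Alas1 makes its first precursor. Alas1 had 9.52, 9.60, 9.41 and 9.53 in control and 9.12, 8.52, 8.95 and 8.86 at day 3. No day 3 array reached control, replicate 2 was the lowest, and the difference was -0.65 ± 0.11 (1.57-fold lower, limma adjusted p = 0.0434). Its withdrawal level was 8.90 ± 0.09 and day 3 minus withdrawal was -0.04 ± 0.12, whereas at day 7 it stood at 9.36 ± 0.12. It was the only one of 7 heme synthesis genes that passed. Fech, which inserts iron, differed by -0.31 ± 0.09 without overlap, and Uros by -0.46 ± 0.13 with overlap. Urod, Alad, Cpox and Ppox differed by 0.03, 0.06, 0.20 and 0.27.

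Further genes had day 3 means between those of withdrawal and control. Sbsn, which encodes the secreted protein suprabasin, had 8.38, 8.53, 8.31 and 8.18 in control and 7.55, 7.54, 7.48 and 7.75 at day 3, after 6.74 ± 0.30 at withdrawal. The difference was -0.77 ± 0.12 (limma adjusted p = 0.0428). Prxl2b, a prostaglandin F synthase, had 7.16 to 7.62 in control and 6.48 to 6.85 at day 3, with replicate 3 apart at 6.48, and a difference of -0.62 ± 0.11 (limma adjusted p = 0.0458). Its withdrawal level was 6.53 ± 0.12, and day 3 minus withdrawal was 0.20 ± 0.12 (limma adjusted p = 0.496), with overlap. Spock3, a proteoglycan of the testican family, had 3.07, 3.04, 3.20 and 3.08 in control and 3.93, 4.31, 3.69 and 4.38 at day 3, and rose by 0.98 ± 0.17 (limma adjusted p = 0.0434). At withdrawal it was 4.38 ± 0.10, and day 3 minus withdrawal was -0.30 ± 0.19 (limma adjusted p = 0.522), with overlap. At day 7 it was 3.15 ± 0.36, near control.

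Tmem71, a transmembrane protein, was chosen for mention after its values were seen. It had 4.39, 4.42, 4.33 and 4.13 in control and 5.12, 5.04, 5.24 and 5.10 at day 3. It rose by 0.81 ± 0.11 (limma adjusted p = 0.00617). Day 3 minus withdrawal was -0.56 ± 0.11 (limma adjusted p = 0.0183), so it had fallen from its withdrawal level and was still at 5.04 ± 0.15 on day 7. Serpina3n, a secreted protease inhibitor that responds to inflammation, had 3.54, 3.75, 4.28 and 3.71 in control and 5.05, 5.70, 5.87 and 6.38 at day 3. It rose by 1.93 ± 0.31 (3.80-fold, limma adjusted p = 0.0428), with 5.40 ± 0.78 at withdrawal. Day 3 replicate 1, which had the highest liver list mean, had the lowest of its day 3 levels, and without the 3 liver-rich arrays the difference was 2.18 (limma adjusted p = 0.0897).

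Other called genes, except Olfr1333 below, had day 3 means beyond those of both control and withdrawal. For several of them day 3 minus withdrawal did not pass. Id1, which blocks basic helix-loop-helix factors and responds to BMP signals, had 5.94, 5.99, 5.87 and 5.98 in control and 6.38, 7.12, 7.00 and 7.00 at day 3. It rose by 0.93 ± 0.15 (limma adjusted p = 0.0434), and withdrawal stood at 6.54 ± 0.25. Day 3 minus withdrawal was 0.34 ± 0.17 (limma adjusted p = 0.393), and those arrays overlapped. Oit3, a secreted protein known from the liver, had 2.83, 1.72, 2.99 and 2.93 in control and 3.67, 3.97, 3.94 and 4.07 at day 3. It rose by 1.29 ± 0.23 (limma adjusted p = 0.0458), by 1.81 ± 0.25 over withdrawal (limma adjusted p = 0.00183), and at day 3 was lowest in the liver-rich replicate 1. Without the 3 liver-rich arrays the difference was 1.5 (limma adjusted p = 0.144). Cyp4b1-ps2, annotated as a pseudogene of a cytochrome P450 whose probes may also read related copies, rose from 2.47 ± 0.16 to 3.57 ± 0.22, by 1.10 ± 0.20 (limma adjusted p = 0.0458). It was at 2.47 ± 0.34 at withdrawal and 2.19 ± 0.45 on day 7.

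Sertad1, a regulator of E2F factors, rose by 0.60 ± 0.11 from 3.79 ± 0.13 (limma adjusted p = 0.0434). At withdrawal it was already at 4.25 ± 0.14, which was 0.45 above control (limma adjusted p = 0.0367). Its day 3 minus withdrawal was 0.15 ± 0.12 (limma adjusted p = 0.637), with overlap. Adgrg2, an adhesion G protein-coupled receptor, had 4.37, 3.72, 3.74 and 3.22 in control and 2.16, 2.22, 2.61 and 2.96 at day 3. The difference was -1.27 ± 0.21 (limma adjusted p = 0.0434), and withdrawal was at 2.88 ± 0.13. Day 3 minus withdrawal was -0.39 ± 0.23 (limma adjusted p = 0.491), with overlap. Nrbp2, a pseudokinase, had 5.71, 5.62, 5.37 and 5.75 in control and 4.73, 4.84, 5.03 and 4.47 at day 3, with a difference of -0.84 ± 0.12 (limma adjusted p = 0.0229). Withdrawal was between them at 5.30 ± 0.16, and day 3 minus withdrawal was -0.53 ± 0.13 (limma adjusted p = 0.0546). The olfactory receptor Olfr1333 and the seminal vesicle gene Svs3b had differences of -0.80 ± 0.14 and -0.61 ± 0.11 (limma adjusted p = 0.0434 for each). Their day 3 levels were 1.74 ± 0.11 and 1.36 ± 0.14, at the floor. At withdrawal they were at 1.44 ± 0.15 and 1.53 ± 0.05, so the day 3 mean of Olfr1333 lay between withdrawal and control. Day 3 minus withdrawal was 0.30 ± 0.15 and -0.17 ± 0.12 (limma adjusted p = 0.398 and 0.572). Sertad1, Olfr1333 and Svs3b were also named after their values were seen.

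**Figure D4:**
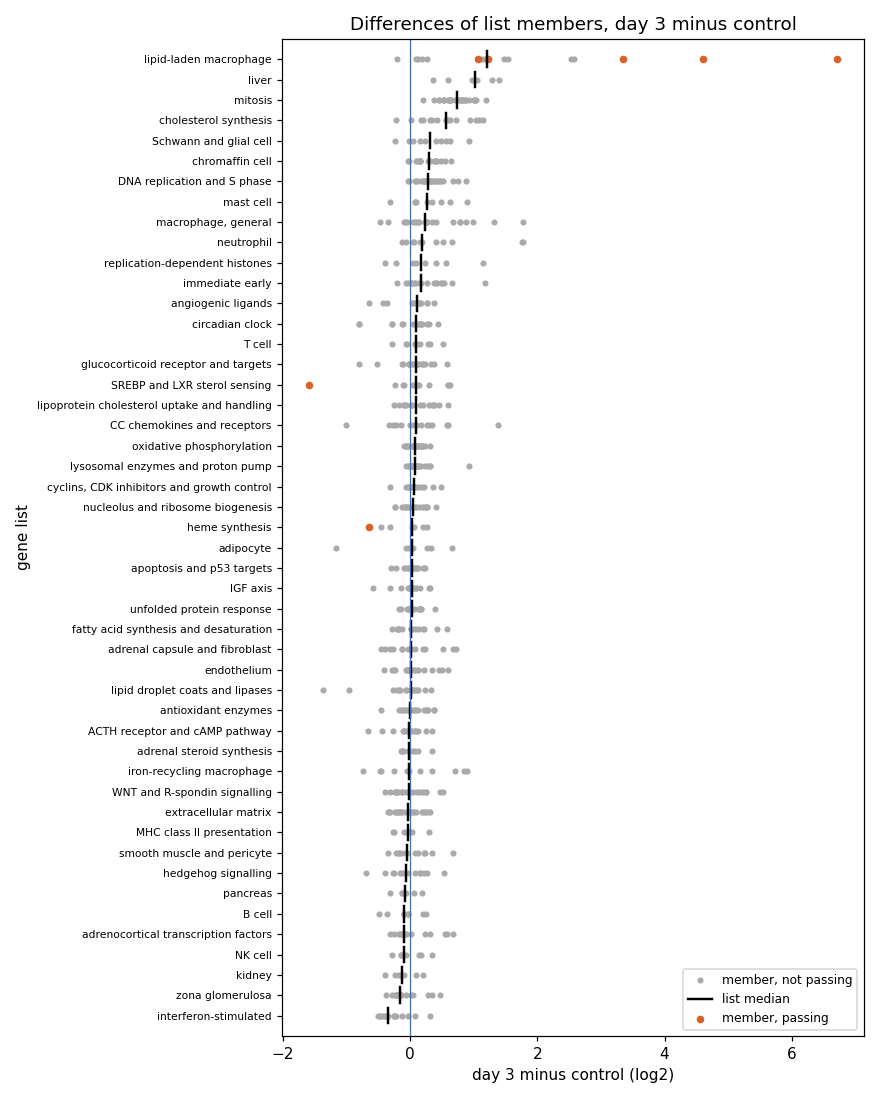
Day 3 minus control (log2) of the measured members of 48 gene lists, with members that passed in orange, other members in grey and the list median as a black bar. The medians of the lipid-laden macrophage, liver, mitosis and cholesterol synthesis lists lay above 0.5, and the other 44 lay nearer to 0.

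In 45 of 48 gene lists no member passed in the main fit, where 28 of all 21439 genes did. Zona glomerulosa genes, which mark the outer cortex that makes aldosterone, had a median of -0.16 over 18 members, where withdrawal minus control was 0.34. Of the 18, 13 were negative, as were 10878 of all 21439 genes. Vsnl1 and Agtr1b, a calcium sensor and an angiotensin receptor, differed by -0.29 ± 0.16 and -0.22 ± 0.17. Cyp11b2, the aldosterone synthase, had 8.03 to 8.64 in control and 8.54 to 8.89 at day 3, with a difference of 0.35 ± 0.15. Axin2, a target of WNT signalling, differed by 0.47 ± 0.15, after 1.29 at withdrawal. Nr0b1 (DAX1), a repressor of steroidogenic factor 1, differed by 0.55 ± 0.16, after 1.02 at withdrawal, and Nr5a1, which encodes steroidogenic factor 1, by -0.07 ± 0.10. Shh, Wnt4 and Rspo3, signals of capsule and outer cortex, differed by -0.16, 0.04 and -0.12.

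No member of the chromaffin cell, Schwann and glial cell, endothelial or extracellular matrix lists passed. The chromaffin cell list had a median of 0.29 over 20 genes, 18 of them positive and 2 without overlap above control. Over all genes these shares were 49.2% and 2.75%. Pnmt had the largest difference of the list at 0.64 ± 0.33, with overlap. Scg2, a granule protein, had 9.39 to 9.59 in control and 9.68 to 9.96 at day 3 (difference 0.30 ± 0.09), and Syt1, a sensor for exocytosis, differed by 0.55 ± 0.21. The median of withdrawal minus control was 0.47. Schwann and glial cell genes had a median of 0.32 over 10 members, 8 of them positive and 1 without overlap above control. Endothelial genes had a median of 0.01 over 20 members, and Pecam1, a junction protein of vessels, differed by 0.12 ± 0.08. Extracellular matrix genes had a median of -0.03 over 24.

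Interferon-stimulated genes had the lowest list median at -0.35, with 13 of 15 negative and 3 without overlap below control. Of all 21439 genes, 10878 were negative and 2.45% had no overlap below control. Isg15 and Xaf1 differed by -0.51 ± 0.20 and -0.48 ± 0.13 (limma adjusted p = 0.385 and 0.174), and Gbp3 by -0.41 ± 0.13. The median of withdrawal minus control was -0.33. Among immediate early genes, Atf3 and Klf6, both stress-responsive factors, differed by 1.17 ± 0.28 and 0.50 ± 0.12 without overlap. Plin5, a lipid droplet coat protein, had 4.22, 4.68, 5.38 and 4.68 in control and 3.33, 3.32, 3.66 and 3.18 at day 3 (difference -1.37 ± 0.26, limma adjusted p = 0.0625). Withdrawal was already at 3.39 ± 0.24. Plin5 was the lowest of 17 genes of lipid droplet coats and lipases, whose median was 0.01, with 9 positive. Hmox1, which breaks heme down, differed by -0.74 ± 0.24 without overlap. Of glucocorticoid receptor targets none of 20 passed, and Fkbp5, a co-chaperone induced by glucocorticoids, differed by -0.02 ± 0.16.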

How the data were processed

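Total RNA of whole glands was read on 15 expression arrays. Per the submitters' processing notes, the authors normalized the arrays by RMA with oligo, and their deposited table holds log2 values. The label protocol names a WT Pico kit for biotin-labelled targets. Software versions and filters: not given in the sources used here. Of 32736 probe sets, the 22399 with 1 gene symbol in the platform annotation were used. 1607 had several symbols and 8730 had none, and 22261 matched RefSeq. Where several probe sets named a gene (807 genes), that with the highest mean was kept, which left 21439 genes. The number of arrays limits the precision. Arrays of a group correlated at 0.987 to 0.991 with the others of their group.

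All 15 arrays entered 1 limma 3.58.1 model (R 4.3.3; lmFit, contrasts.fit and eBayes without trend or robust) with the 4 groups. P-values were adjusted by Benjamini-Hochberg within each contrast, with a threshold of 0.05. The script was tested on simulated data. Genes were named by a rule: the 12 largest rises and 12 largest falls that passed without overlap at a level of at least 3, leaving out predicted genes and olfactory and similar families, up to 4 members that passed of each of 48 lists, and 25 set genes, of which 23 were measured. Members of lists that did not pass were chosen for mention after their values were seen and are given by value. The members and lists were chosen with earlier results of these data known, so lists are described by counts and medians with no test. Alternatives covered the arrays in the fit, scaling, a filter on dim genes, variance moderation, the choice of probe set, array weights, a stricter threshold, the replicate number as a block and leaving out arrays. Promoter windows and sequences came from RefSeq (GRCm38.p6).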

Additional observations from a re-analysis of the deposited data

Results flagged for a closer look

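In 23 of 324 sets of 4 arrays, the highest or lowest array stood apart from the other 3 by Dixon's criterion, and chance gives about 1 in 20.

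Control replicate 2 was the array that stood apart most often. It was below the other control arrays for Oit3 (1.72 against 2.83 to 2.99), Mrap (8.92 against 9.18 to 9.22), Sqle (5.44 against 6.34 to 6.49), Msmo1 (7.14 against 7.40), Insig1 (6.64 against 6.88 to 6.92), Scg2 (9.39 against 9.57 to 9.59) and Cd36 (7.65 against 8.03 to 8.06). Its mean of the IGF axis list was 5.33, against 5.51 to 5.52. It was above the others for Lgals3 (2.12 against 1.52 to 1.57). Control replicate 1 was low for Atf3 (1.91 against 2.98 to 3.13), and control replicate 3 was low for Xaf1 (7.10 against 7.50 to 7.53).

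Day 3 replicate 1 was low for Id1 (6.38 against 7.00 to 7.12), Lmnb1 (5.32 against 5.65 to 5.68), Srebf1 (4.84 against 5.25 to 5.27) and H1f5 (6.55 against 7.10 to 7.20). Day 3 replicate 2 was high for the neutrophil genes S100a8 (7.69 against 2.89 to 3.50), S100a9 (7.47 against 3.78 to 4.15) and Camp (5.43 against 0.94 to 1.37), for Itgam (3.61 against 2.48 to 2.63) and for the neutrophil list (3.30 against 1.48 to 1.73). It was low for the list of adrenocortical transcription factors (4.43 against 4.66 to 4.68). Day 3 replicate 3 was low for Prxl2b (6.48 against 6.81 to 6.85) and high for Ucp1 (4.79 against 1.57 to 1.85).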

How the results depend on the processing

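Of the 19 higher and 9 lower genes, the counts became 8 and 1 with the 8 control and day 3 arrays alone, 6 and 4 over all probe sets, 4 and 1 at an adjusted p under 0.01, 53 and 36 when only the 10031 genes of at least 3 in either group were tested, and 52 and 39 with a variance trend and robust moderation. Array weights gave 28 and 14, and quantile normalization 9 and 10. With the 3 liver-rich control and day 3 arrays left out, which was chosen after seeing the data, there were 13 and 2. Leaving out an array gave 4 to 15 higher and 2 to 13 lower genes. With the replicate number as a block (replicate block) there were 3 and 1. Same-numbered control and day 3 arrays did not deviate together over all genes (correlations of -0.114, -0.098, -0.079 and -0.093). Withdrawal and day 7 arrays were not compared in this way, so whether the numbers pair the samples was not settled.

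No called gene changed direction under any of these settings. All 28 stayed called with centred arrays, with the probe set of largest variance, with array weights and with the variance trend, and 24 of the 24 that remained under the filter on dim genes stayed called. That filter keeps a gene that reaches the level in either group, so some genes entered only through the group where they were high. The quantile setting kept 17, the 8 arrays alone 7 and the block 3. Of the 48 list medians, none moved by more than the spread between arrays with centring, 7 of 46 did under the filter on dim genes and 3 of 48 without the liver-rich arrays, where the liver list's own median went from 1.02 to 0.01. Many levels lay near the array floor, where a fall has no room and a difference may be understated.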
